A study of Rattus norvegicus with 6 samples.

Results

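The subunits of the mitochondrial respiratory chain and of ATP synthase were compared between the kidneys of 2 rat strains. Members were all probe sets with 1 gene symbol that begins with the letters of a nuclear-encoded subunit family (Ndufa, Ndufb, Ndufc, Ndufs, Ndufv, Sdha to Sdhd, Uqcr, Cyc1, Cox4i, Cox5 to Cox8 and Atp5), without the assembly factors Ndufaf and Uqcc. A probe set is the group of short probes with which the array reads 1 transcript. The rule found 85 of the 14217 genes with a probe set of their own, read by 95 of the 31042 probe sets that are not controls. Of these, 84 probe sets of 77 genes belong to subunits: 37 to complex I (34 genes), 5 to complex II (4 genes), 9 to complex III (8 genes), 16 to complex IV (16 genes) and 17 to ATP synthase (15 genes). Ndufa4 was counted with complex IV, of which its product is a subunit despite the name. The other 11 probe sets, of 8 genes, share the letters but are no subunits: the complex II assembly factors Sdhaf1 to Sdhaf4, the supercomplex factor Cox7a2l, the ATP synthase inhibitor Atp5if1, the Ndufa4 paralogue Ndufa4l2 and the pseudogene Cox6c-ps1. A further 7 probe sets carry several symbols, some of which match the rule, and are described apart.

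The control group was the Dahl salt-sensitive (S) strain, which becomes hypertensive on a salt-rich diet. The other group was a congenic strain with Dahl S background, which carries a small chromosome 9 segment of the Dahl salt-resistant (R) strain on the S background, so the controls and the congenic rats share the S genome elsewhere. All rats were male, were weaned at 30 days, ate a diet with 2% salt, were caged with 1 rat of each strain together and were killed at 53 days. Kidney RNA of 2 rats was pooled into each sample, with 3 pools a strain and 1 Affymetrix Rat 230 2.0 array a pool. Pooling hides differences between single rats, and rats on another salt level were not analysed here.

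Complex I (NADH dehydrogenase) and complex II (succinate dehydrogenase) pass electrons to ubiquinone, complex III (the cytochrome bc1 complex) passes them on to cytochrome c, and complex IV (cytochrome c oxidase) passes them to oxygen. Complexes I, III and IV pump protons across the inner membrane, and ATP synthase, also called complex V, lets the protons return and makes ATP. Kidney tubule cells, above all those of the proximal tubule and the thick ascending limb, are packed with mitochondria because reabsorption of sodium needs ATP. The proteins encoded by mitochondrial DNA are not among the members.

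The nuclear genes of the 5 complexes are known targets of the factors GABPA (an ETS factor) and YY1, among others, and the letters these 2 factors prefer were looked for around the start of each member gene. RefSeq's table for the rat build GRCr8 held an entry for 76 of the 85 genes, each with 250 bases before and 50 after the start. Both strands were searched, and the freer YY1 spelling contains the exact one. The ETS word CCGGAAG stood in 23 members (30.3%) and in 11.2% of the 19005 promoters of protein-coding genes. The YY1 word AAGATGGC stood in 16 members (21.1%) and 3.92% of coding promoters, and with 1 base left free (AANATGGC) in 31 members (40.8%) and 8.02%. These matches describe letters in a window and are no measure of binding.

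The examples that follow show 1 or more sites of each word, with the word in capitals as it reads 5′ to 3′ on the gene's strand, where CTTCCGG is the ETS word on the other strand. Uqcrh, Uqcrc2 and Sdhc are shown because their probe sets are among those with the smallest p in the strain comparison, and Cox4i1 and Ndufs7 as core subunits for comparison.
Uqcrh, ETS, minus strand of chr5:134790947-134790976: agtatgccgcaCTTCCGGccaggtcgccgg
Uqcrc2, ETS, plus strand of chr1:184599112-184599141: actcatccggcCTTCCGGagcagtagagca
Uqcrc2, ETS, plus strand of chr1:184599201-184599230: ggaaacttggtCTTCCGGcaccatcttgct
Cox4i1, ETS, plus strand of chr19:65630375-65630404: accgtcttgctCTTCCGGtgcgggacccgc
Sdhc, YY1, minus strand of chr13:86098004-86098033: ggccggaactcAAGATGGCtgcgctcttgc
Ndufs7, YY1, minus strand of chr7:10110476-10110505: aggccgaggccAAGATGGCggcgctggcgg
The words of Sdhc and Cox4i1 begin at base 4 of the transcript, that of Ndufs7 at base 5, that of Uqcrh at 83 bases before the start, and those of Uqcrc2 at 117 and 28 bases before it. The promoters of Ndufv2, Cox6b1 and Atp5pb, which also had a small p, held none of the 3 spellings in this window.

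All 12 proximal tubule genes of a list of markers of the labelled tissue lay above the filter on dim probe sets. Their summed signal ranged from 35431 to 39223 in S pools and from 36091 to 37902 in congenic pools. That of 8 thick ascending limb and distal tubule markers ranged from 15997 to 16282 in S pools. In congenic pools it ranged from 16120 to 17138, highest in congenic replicate 3. The 7 of these above the filter had log2 differences, congenic minus S, from -0.21 (Bsnd) to 0.26 (Kcnj1), 4 of them positive. Of the collecting duct markers, the summed signal of 7 genes ranged from 5189 to 5941 in S and from 5920 to 6811 in congenic pools, where S replicate 3 lay just above congenic replicate 1. Their log2 difference, congenic minus S, had a median of 0.17. The water channels Aqp3 (0.43, SE 0.11) and Aqp2 (0.23, SE 0.0701) did not overlap between the groups. Both were higher in congenic pools, at a limma adjusted p of 0.710 each. The groups overlapped for Atp6v1b1 (0.18, SE 0.12), Scnn1g (0.17, SE 0.11), Slc4a1 (0.051, SE 0.105), Avpr2 (0.0043, SE 0.14) and Hsd11b2 (-0.070, SE 0.088). The part of this cell type in the results that follow was not tested. Congenic replicate 1 carried liver transcripts (summed signal of 8 markers 10548, against 204 to 271 on the other 5 arrays), and congenic replicate 3 carried adrenal transcripts (5 markers, 5506 against 128 to 142). The 3′ over 5′ signal ratio of beta-actin, which increases as RNA degrades, was 9.42, 8.13 and 6.54 in the S pools against 6.15, 6.64 and 7.17 in the congenic pools. In whole kidney, fewer cells of a type and less RNA per cell cannot be told apart.

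Respiratory chain transcripts were nearly level between the strains. Of the 95 member probe sets, 86 (80 genes) passed the filter, a mean signal over all 6 arrays of at least 25.6. None of the 86 passed limma's test at a Benjamini-Hochberg adjusted p under 0.05, as was true of all 18625 probe sets tested (0.0%), and the smallest adjusted p of a member was 0.735. At an unadjusted p under 0.05 there were 7 members (8.14%), where all tested probe sets gave 6.61%. Of the 7, 6 were higher in congenic pools (3.09% of all probe sets) and 1 was lower (3.53%). In 11 members the groups did not overlap (12.5% of all probe sets), with 9 higher (5.74%) and 2 lower (6.79%) in congenic pools. The shares over both directions lie near the background. The median log2 fold change (log2FC), congenic over S, was 0.033 over the members and -0.0034 over all probe sets, and 63 of 86 members had a positive sign, against 48.8% of all. The member counts moved with single arrays: at an unadjusted p under 0.05 there were 2 without S replicate 1, 3 without congenic replicate 1 and 1 without congenic replicate 3. There were 4 with quantile normalization and 1 with a prior variance that did not follow the intensity.

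Members are among the brightest transcripts of this tissue, which made their small differences better resolved than most. The median mean signal was 1834 for the tested members and 133 for all tested probe sets, and 72 of the 86 were among the brightest 1863 probe sets. Of those 1863, 53.9% of probe sets had a positive sign, the median log2FC was 0.0077 and 9.29% had an unadjusted p under 0.05. At that p, 113 of the 1863 were higher in congenic pools and 60 lower. The groups did not overlap in 276 of the 1863, with 176 higher and 100 lower. The brightest probe sets thus leaned upward too, though less than the members (73.3% positive, median 0.033). Their median was -0.0045 with quantile normalization, -0.0059 without S replicate 3 and -0.0026 without congenic replicate 3. The member median in these settings was 0.023, 0.042 and 0.025. Why the 2 medians differ was not tested. The standard error had a median of 0.056 for members and 0.105 over all probe sets. For 83 of 86 members the 95% interval of the fold change lay within 1.5-fold either way (92.7% of all probe sets), and for 68 it lay within 1.2-fold (31.2%). A larger change is thus outside the interval for most members, whereas a change of a few percent is not.

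**Figure D1:**
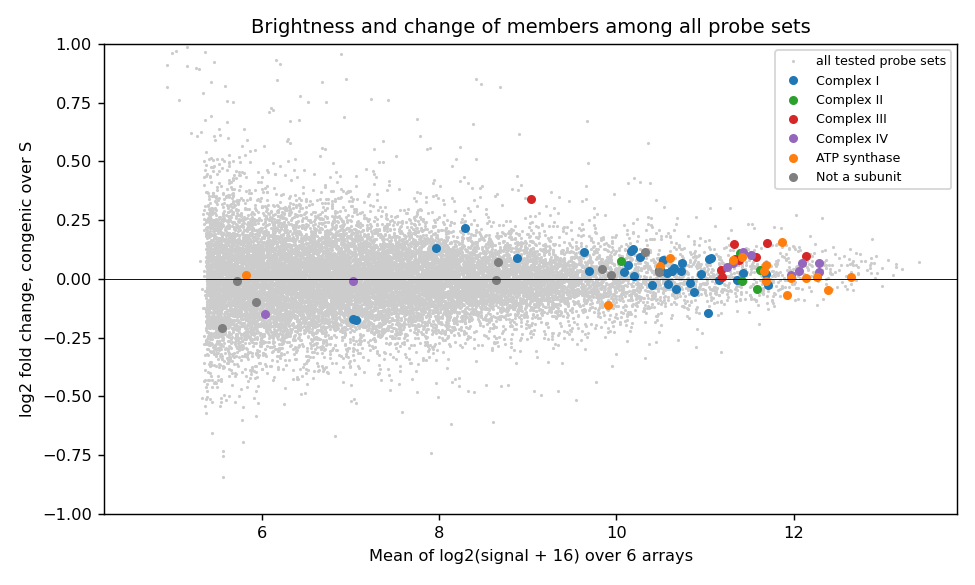
Each grey point is 1 of the 18625 tested probe sets and each coloured point 1 of the 86 tested member probe sets, with the mean of log2(signal + 16) over 6 arrays on the horizontal axis and the log2 fold change, congenic over S, on the vertical axis (32 probe sets lie outside the plotted range). Members crowd at the bright end, where the grey cloud is narrow, and lie between -0.21 and 0.34.

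In complex III all 9 probe sets of its 8 genes had a positive log2FC, from 0.0067 to 0.34 with a median of 0.094, beside -0.0034 over all probe sets and 0.0077 over the brightest 1863. Of the 9, 3 had an unadjusted p under 0.05 (6.61% of all probe sets) and 0 an adjusted p under 0.05 by limma. The 3 became 0 when the prior variance did not follow the intensity, and 1 when S replicate 1 or either of congenic replicates 1 and 3 was left out. In 3 of 9 the groups did not overlap, where all probe sets gave 12.5%.

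Uqcrh encodes the acidic hinge protein, which helps cytochrome c1 of complex III bind cytochrome c. It measured 3135, 3240.3 and 3027 in S and 3426, 3361 and 3663 in congenic pools. Every congenic pool lay above every S pool. The mean went from 3134 ± 107 to 3483 ± 159 (SD, n = 3 each), 11.1% higher, with a log2FC of 0.15 (SE 0.051, limma adjusted p = 0.735).

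Uqcrc2, a core protein of the matrix side, was read by 2 probe sets that both leaned upward. The brighter one measured 2418, 2255 and 2599 in S and 2737, 2515 and 2803 in congenic pools, a log2FC of 0.15 (SE 0.064). S replicate 3 lay above congenic replicate 2, so the groups overlapped. The dimmer one measured 388, 411 and 575 in S and 637, 609 and 491 in congenic pools, with a log2FC of 0.34 (SE 0.14). Here S replicate 3 lay above congenic replicate 3, and the value was 0.23 without S replicate 1 and 0.51 without S replicate 3. For the brighter probe set, the value without S replicate 2 was 0.097. The adjusted p by limma was 0.75 for both.

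Of the redox centres of complex III, the Rieske iron-sulphur protein Uqcrfs1 measured 2808, 2947 and 3096 in S and 3126, 3118 and 3199.7 in congenic pools. The groups did not overlap, and the log2FC was 0.094 (SE 0.0501). Cytochrome c1 (Cyc1), which hands the electron to cytochrome c, measured 2532, 2723 and 2489 against 2636, 2687 and 2869.7, with overlapping groups and a log2FC of 0.081 (SE 0.055). The small accessory subunits Uqcr10, Uqcr11 and Uqcrq had log2FC values of 0.096, 0.086 and 0.037, and the groups of Uqcr11 did not overlap (2409 to 2557 in S, 2625 to 2667 in congenic pools). The other core protein, Uqcrc1, measured 2169.7, 2476 and 2316 against 2154, 2348 and 2495, a log2FC of 0.0067 (SE 0.068). Uqcrc1 was at -0.043 without congenic replicate 3, so it had no settled sign.

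Summed over its 9 probe sets, complex III took 0.343%, 0.361% and 0.358% of the array's signal in S and 0.371%, 0.372% and 0.384% in congenic pools. The 3 congenic shares lay above the 3 S shares, as they did for complex IV (0.488%, 0.513% and 0.508% in S, 0.516%, 0.518% and 0.524% in congenic pools). Congenic replicate 3, the array with adrenal transcripts, had the highest value for 6 of the 9 probe sets, and S replicate 1, where the actin ratio was highest, the lowest for 4. Without congenic replicate 3 the median log2FC was 0.082 with 8 of 9 positive, and without S replicate 1 it was 0.067 with 8 of 9 positive. Quantile normalization gave 0.066 with 8 of 9 positive, 2 with an unadjusted p under 0.05 and 1 in which the groups did not overlap.

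**Figure D2:**
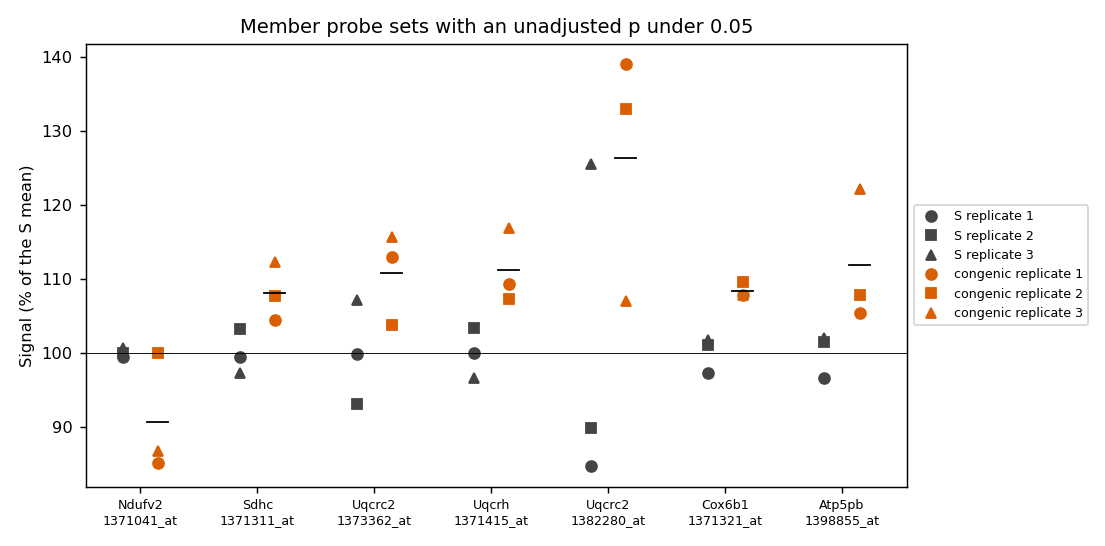
Signals of the 7 member probe sets with an unadjusted p under 0.05, in percent of the S mean of the same probe set (vertical axis), with 1 symbol per array and a bar at the congenic mean. The axis starts above 0. Congenic points of Sdhc, Uqcrh, Cox6b1 and Atp5pb lie above all S points, whereas those of Ndufv2 and both probe sets of Uqcrc2 overlap with S.

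Complex I, the largest complex, held 36 tested probe sets of its 34 genes, with a median log2FC of 0.0325 and 25 positive signs. The values ran from -0.18 to 0.22. The median was 0.0027 with 19 positive signs without S replicate 1, and 0.0101 with 22 without congenic replicate 3. Of the 36, 1 had an unadjusted p under 0.05, or 2.78%, below the 6.61% of all probe sets, and 0 passed adjusted by limma. For all 36 the 95% interval lay within 1.5-fold.

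That probe set was Ndufv2, an iron-sulphur subunit of the module that oxidises NADH. It measured 2182, 2195 and 2209 in S and 1867, 2194 and 1905 in congenic pools. Congenic replicate 2 lay within the S range, and the other 2 congenic pools lay below it. The log2FC was -0.15 (SE 0.064, limma adjusted p = 0.75), -0.10 without congenic replicate 1, -0.22 without congenic replicate 2 and -0.12 without congenic replicate 3. The low congenic pools are those with liver and adrenal transcripts, and the part of that tissue in the difference was not tested.

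The other core subunits had values near 0. Ndufv1, which binds NADH and the flavin, had a log2FC of -0.044 (SE 0.058), and Ndufs1, the largest iron-sulphur subunit, of -0.019 (SE 0.049). Ndufs3, Ndufs7 and Ndufs8, which link the chain of iron-sulphur clusters to the ubiquinone site, had values of 0.032, 0.034 and 0.033. Ndufs1 measured 1864, 1791 and 1803 in S and 1831, 1754 and 1799.9 in congenic pools, so the strains overlapped.

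Among the accessory subunits of complex I, which surround the core, Ndufb10 measured 1040.2, 1163 and 1059.5 in S and 1145, 1214 and 1184 in congenic pools, a log2FC of 0.12 (SE 0.0604, adjusted p = 0.783 by limma). Ndufa6 and Ndufs6 had values of 0.0899 and 0.085, and for both every congenic pool lay above every S pool. In complex I the groups did not overlap in 3 of the 36 probe sets, where all probe sets gave 12.5%. Ndufa5 had the largest value, 0.22 (SE 0.12), from S signals of 230.4, 265 and 339 and congenic signals of 324, 321 and 319. The congenic pools were close to each other and S replicate 3 was above all of them. Where a gene had 2 tested probe sets, they did not always point the same way. For Ndufv3 the brighter probe set gave 0.11 (SE 0.069) and the dimmer -0.18 (SE 0.16). For Ndufa7 the dimmer one gave -0.17 (SE 0.085), with S signals of 124, 122 and 122 above congenic signals of 102, 105 and 114, and the brighter one -0.0203 (SE 0.0904).

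In complex II, which is also the succinate dehydrogenase of the citric acid cycle, the values of the 4 subunits lay on both sides of 0. Differences between the subunits were not tested. Sdhc, a membrane anchor, measured 2567, 2663 and 2511 in S and 2695, 2778 and 2899 in congenic pools. The groups did not overlap, and the log2FC was 0.11 (SE 0.0498, limma adjusted p = 0.752). Sdha, the flavoprotein that oxidises succinate, measured 3094, 3100.02 and 3142 in S and 3028, 3027 and 3004 in congenic pools. All 3 congenic pools of Sdha lay below all S pools, but by a difference of -2.97% of the S mean, a log2FC of -0.043 (SE 0.043). The iron-sulphur subunit Sdhb was at -0.0070 (SE 0.049), and the second anchor Sdhd at 0.077 (SE 0.0698) and 0.038 (SE 0.056) in its 2 probe sets. The median of the 5 probe sets was 0.038, and -0.0057 without congenic replicate 3.

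Complex IV had 11 of its 16 probe sets above the filter, with a median log2FC of 0.052 and 9 positive signs. The median was 0.031 without S replicate 1, and quantile normalization gave 0.023 with 6 of 11 positive and 0 at an unadjusted p under 0.05. Cox6b1, which sits on the outer face where cytochrome c docks, had the smallest p of this complex. It measured 2568, 2669 and 2686 in S and 2847, 2896 and 2847 in congenic pools, with no overlap. The means were 2641 ± 63.7 and 2864 ± 27.9 (SD, n = 3 each), 8.43% apart, a log2FC of 0.12 (SE 0.045, limma adjusted p = 0.75). Cox6a1, the form of the regulatory subunit found outside muscle, measured 2529, 2965 and 3017 against 3039, 3109 and 2954, a log2FC of 0.10 (SE 0.068). Its low S value came from S replicate 1, without which the log2FC was 0.0201.

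Cox4i1 encodes the subunit through which ATP inhibits the enzyme. It measured 4168, 4263 and 4295 in S and 4277, 4423 and 4641 in congenic pools, with a log2FC of 0.067 (SE 0.047) and overlapping groups. Cox5b, which binds zinc, was at 0.067 (SE 0.066) and at -0.0075 without S replicate 1, so that array alone gave its sign. Cox7b and Cox8a had values of 0.066 (SE 0.047) and 0.030 (SE 0.043). The single-symbol probe set of Cox5a was dim (94.0 to 145 over the 6 arrays) and had a value of -0.0090 (SE 0.16). A bright probe set annotated to both Cox5a and another locus (3213 to 3516) had a value of 0.054 (SE 0.048).

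Isoforms of complex IV known from other tissues were dim in both strains. The muscle forms Cox6a2 and Cox7a1 measured 1.64 to 12.4 and 15.6 to 29.9 over the 6 arrays, the lung form Cox4i2 6.36 to 21.8, and the testis forms Cox6b2 and Cox7b2 15.5 to 30.3 and 0.857 to 8.41. None of these 5 passed the filter, and no fold change is given for them. The muscle form Cox8b, at 26.2, 70.3 and 74.1 in S and 54.7, 37.0 and 48.1 in congenic pools, passed it with a log2FC of -0.15 (SE 0.26). Cox8b and Cox7a1 are also abundant in brown fat. The 7 measured fat markers had summed signals of 1542 to 2085 in S and 1252 to 1843 in congenic pools. The 6 of them above the filter all had a negative log2FC, with a median of -0.21. The part of fat in the Cox8b signal was not tested.

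ATP synthase had a median log2FC of 0.013 over 16 tested probe sets, of which 12 were positive. The median had no settled sign: quantile normalization gave -0.0054 with 8 of 16 positive, and it was 0.000093 without S replicate 3 and 0.039 without congenic replicate 1. In the catalytic head, the alpha subunit Atp5f1a measured 4611, 4356 and 4466 in S and 4462, 4440.2 and 4557 in congenic pools, a log2FC of 0.0031 (SE 0.044). The beta subunit Atp5f1b, which holds the catalytic site, measured 6567, 6411 and 6120.1 against 6357, 6368 and 6486, a log2FC of 0.0090 (SE 0.043). Their 95% intervals ran from -0.094 to 0.10 and from -0.087 to 0.11. With quantile normalization both were slightly lower in congenic pools, at -0.041 and -0.0399. The central stalk subunits gamma, delta and epsilon (Atp5f1c, Atp5f1d and Atp5f1e) had values of -0.048 (SE 0.057), 0.088 (SE 0.066) and 0.035 (SE 0.0496).

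Atp5pb encodes subunit b of the peripheral stalk, which holds the head still while the rotor turns. It measured 3395, 3569 and 3585 in S and 3705, 3793 and 4298 in congenic pools. The groups did not overlap, and congenic replicate 3, the array with adrenal transcripts, was far the highest. The log2FC was 0.16 (SE 0.061, limma adjusted p = 0.75), and 0.092 without congenic replicate 3. Of the other stalk proteins, Atp5pf, Atp5pd and Atp5po had values of 0.081, -0.0098 and -0.068. Of the membrane part, Atp5mg, which helps ATP synthase form dimers, had no overlap (2482 to 2766 in S, 2783 to 2830.5 in congenic pools) and a value of 0.095 (SE 0.052). Atp5me was read by a bright probe set at -0.11 (SE 0.087) and a dim one at 0.016 (SE 0.14). Of the genes of subunit c, which forms the proton-carrying ring, Atp5mc3 had a single-symbol probe set, at 0.0076 (SE 0.047). The probe sets of Atp5mc1 and Atp5mc2 carry several symbols and had values of 0.14 (SE 0.045) and 0.0997 (SE 0.062).

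**Figure D3:**
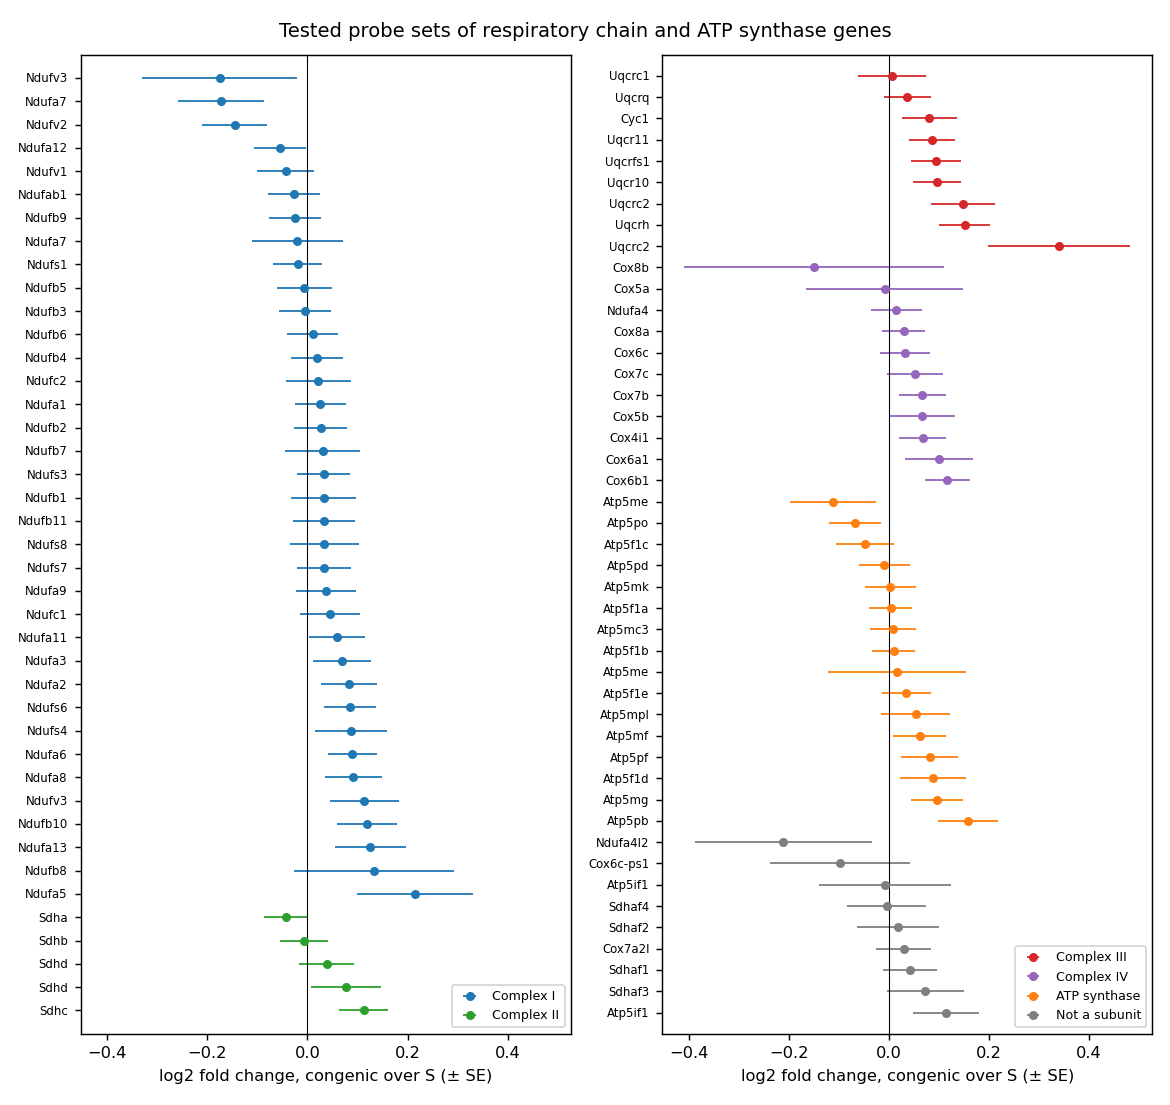
Log2 fold change, congenic over S (horizontal axis), of each of the 86 tested member probe sets with its standard error, grouped by complex and sorted within it; a gene with several probe sets appears more than once. All 9 points of complex III lie to the right of 0, while those of complex I and ATP synthase lie on both sides.

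Among the genes that share the letters without being subunits, none had an unadjusted p under 0.05 (limma). The inhibitor Atp5if1, which stops ATP synthase from running backwards, measured 1144, 1256 and 1261 in S and 1359.95, 1225 and 1381 in congenic pools in its brightest probe set, a log2FC of 0.11 (SE 0.066), and its dim second probe set was at -0.0075 (SE 0.13). Ndufa4l2, a gene induced by hypoxia, was dim and had a value of -0.21 (SE 0.18). The tested probe sets of the assembly factors Sdhaf1 to Sdhaf4 lay between -0.0049 and 0.072. Cox7a2l was at 0.029 and Cox6c-ps1 at -0.097, and 5 of the 9 tested probe sets were positive.

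Of the 7 probe sets with several symbols, 2 had an unadjusted p under 0.05 (6.61% of all probe sets), and in 3 the groups did not overlap (12.5% of all). The one annotated to both Atp5mc1 and a like-named locus measured 2365, 2336 and 2324 in S and 2534, 2599 and 2629 in congenic pools, a log2FC of 0.14 (SE 0.045, limma adjusted p = 0.710). The one annotated to both Ndufa10 and a like-named locus measured 1343, 1299 and 1273 in S and 1167, 1232 and 1161 in congenic pools, a log2FC of -0.14 (SE 0.054, limma adjusted p = 0.75). Neither pair of groups overlapped, nor did that of the probe set annotated to Ndufs5 and a pseudogene (log2FC 0.066), and which locus the signal came from is not known. With the 7 counted in their complexes, the medians were 0.033 for complex I, 0.09 for complex III, 0.054 for complex IV and 0.025 for ATP synthase. Without them these were 0.0325, 0.094, 0.052 and 0.013.

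The level of these transcripts also varied between arrays of a strain. As the median deviation of the 86 members from their 6-array means, the S arrays stood at -0.058, 0.0202 and -0.023 and the congenic arrays at -0.0067, 0.017 and 0.0496 on the log2 scale. S replicate 2 lay above congenic replicates 1 and 2. S replicate 1 had the lowest value of the 6 arrays for 37 of the 86 members and congenic replicate 3 the highest for 35. The array medians of complex III did not overlap, at -0.075, -0.0039 and -0.032 in S and 0.037, 0.025 and 0.081 in congenic pools. Those of complex IV overlapped by a hair, S replicate 2 at 0.0222 and congenic replicate 2 at 0.022, with the other S arrays lower and the other congenic arrays higher. For complexes I, II and ATP synthase at least 1 S array lay above a congenic array.

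**Figure D4:**
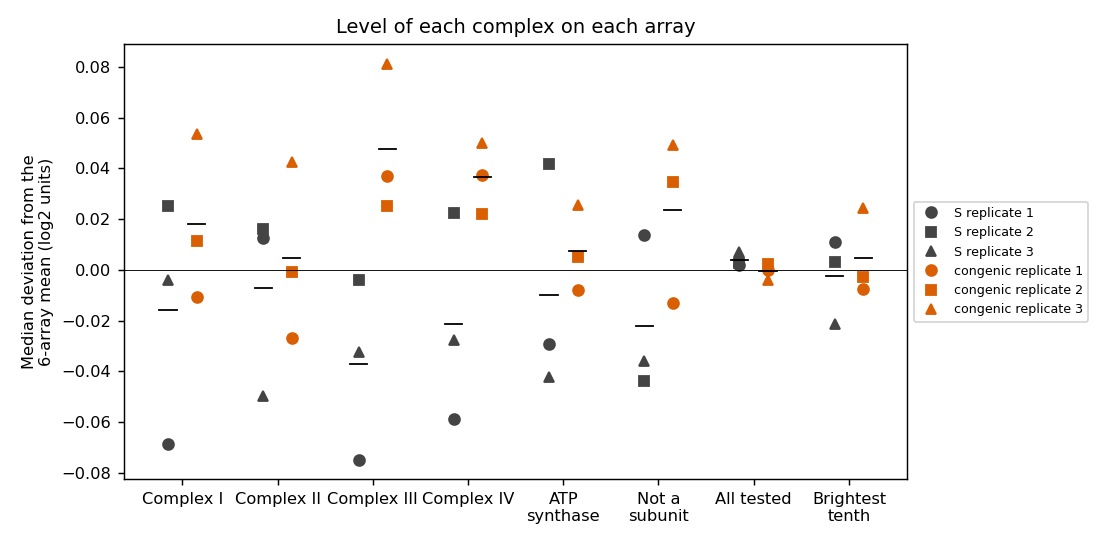
Median deviation of the tested probe sets of each complex from their mean over 6 arrays, in log2 units (vertical axis), with 1 symbol per array, grey for S and orange for congenic, and a bar at each group mean; all tested probe sets and the brightest 1863 of them are beside them. S replicate 1 lies lowest for complexes I, III and IV, and congenic replicate 3 highest for each complex but ATP synthase.

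Chromosome 9, on which the introgressed segment lies, holds 6 member genes, each with 1 tested probe set. Besides Ndufv2, Ndufs1 and Cox5b, these are the complex I accessory genes Ndufa11 and Ndufb3 and the assembly factor Sdhaf4. Ndufa11 measured 1050.6, 1129 and 1056 in S and 1106, 1158 and 1106 in congenic pools, a log2FC of 0.058 (SE 0.056). Ndufb3 was at -0.0050 (SE 0.053) and Sdhaf4 at -0.0049 (SE 0.078). Whether any of them lies within the segment was not analysed here.

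Other genes of mitochondrial energy production, each read by its brightest probe set, were also near 0. Over all 10658 genes the median log2FC was -0.0068 and 6.62% had an unadjusted p under 0.05 (2.96% higher and 3.67% lower in congenic pools; 0.0% adjusted). The 14 tested genes of the citric acid cycle and pyruvate dehydrogenase had a median of 0.00097, with 0 at an unadjusted p under 0.05. Pdha1, the catalytic subunit of pyruvate dehydrogenase, was at -0.071 (SE 0.052) and Idh2, the mitochondrial isocitrate dehydrogenase that makes NADPH, at 0.053 (SE 0.044). The 73 mitochondrial ribosomal proteins had a median of 0.0035, with Mrpl54 at -0.16 (SE 0.056) and Mrpl28 at 0.18 (SE 0.061) the 2 with an unadjusted p under 0.05. The 8 genes of adenine nucleotide, phosphate and porin transport had a median of 0.012 and 0 with an unadjusted p under 0.05. Of these, the uncoupling proteins Ucp1 and Ucp2 were at -0.53 (SE 0.32) and 0.16 (SE 0.102). Ucp1 is also 1 of the fat markers, and all 6 tested fat markers had negative values (median -0.21). The part of fat in the Ucp1 value was not tested.

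The medians of the assembly factors and electron carriers lay between -0.074 and 0.048. The 14 complex I assembly genes had a median of -0.016 and 0 with an unadjusted p under 0.05, with Foxred1 at -0.15 (SE 0.11) and Nubpl, which delivers iron-sulphur clusters, at 0.11 (SE 0.084). Of the 5 complex III assembly genes (median 0.048, and 0.0013 to 0.074 with 1 array left out), 1 had an unadjusted p under 0.05: Uqcc1, needed to make cytochrome b, measured 353, 367 and 361 in S and 290.2, 337 and 311 in congenic pools, a log2FC of -0.20 (SE 0.074, limma adjusted p = 0.75). Its partner Uqcc2 was at 0.11 (SE 0.072). Of the 20 complex IV assembly genes (median -0.0055), 1 had an unadjusted p under 0.05: Cox14 measured 1103, 1084 and 1033 in S and 1166, 1206 and 1328 in congenic pools, a log2FC of 0.20 (SE 0.063, limma adjusted p = 0.710). Pet100 was at 0.15 (SE 0.078). The 4 ATP synthase assembly genes had a median of -0.074, with Dmac2l at -0.101 (SE 0.079) and Atpaf2 at -0.15 (SE 0.12). The 17 electron carrier and ubiquinone genes had a median of -0.026, with Coq10b at 0.19 (SE 0.091) and Gpd2 at -0.22 (SE 0.12). In these last 2 lists 0 genes had an unadjusted p under 0.05.

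Regulators of respiratory genes and of mitochondrial DNA had a median of -0.023 over 16 tested genes, with 8 positive. Of these, 2 had an unadjusted p under 0.05, both lower in congenic pools (against 3.67% of all genes). In 3 of the 16 the groups did not overlap, all lower in congenic pools: Ppargc1a, Esrra and Gabpa. Over all 10658 genes the groups did not overlap in 1353, of which 753 were lower. The 8 positive genes included Pprc1, at 0.17 (SE 0.095), and Yy1, the other factor whose word was searched for, at 0.033 (SE 0.058). Ppargc1a, the coactivator PGC-1alpha that drives mitochondrial gene expression, measured 588, 516 and 590.1 in S and 457, 474 and 501.5 in congenic pools. The log2FC was -0.23 (SE 0.073, limma adjusted p = 0.710). Esrra, the receptor through which PGC-1alpha acts on many respiratory genes, was at -0.16 (SE 0.079), and Gabpa, the ETS factor whose word was searched for above, at -0.095 (SE 0.068). Tfb1m, which modifies the ribosomal RNA of mitochondria, measured 128, 102 and 115 against 90.2, 89.1 and 102.5, so that congenic replicate 3 about equalled S replicate 2, with a log2FC of -0.25 (SE 0.105, limma adjusted p = 0.75).

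**Figure D5:**
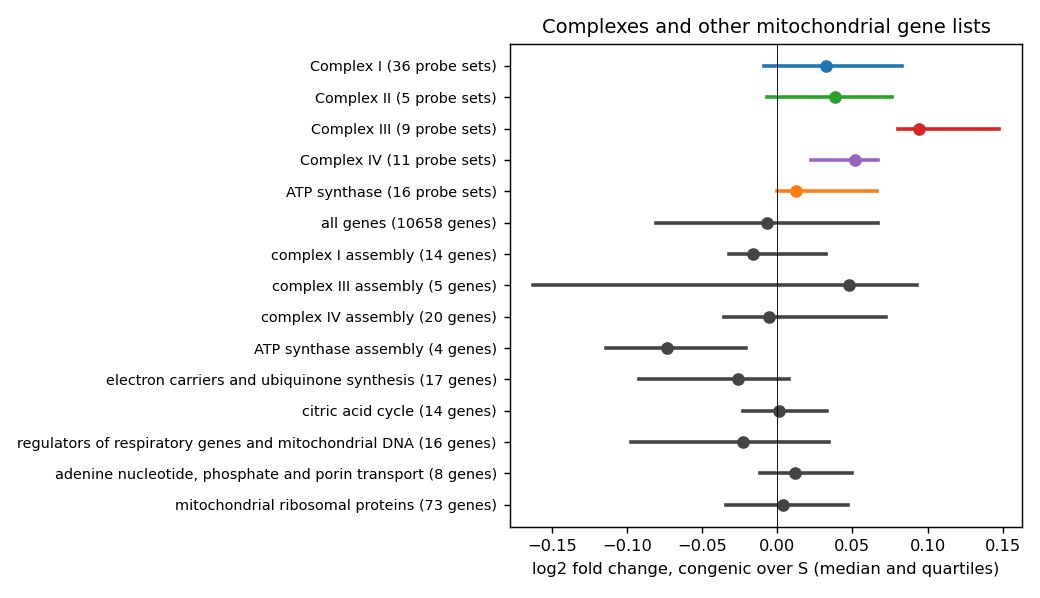
Median and quartiles of the log2 fold change, congenic over S (horizontal axis), for the probe sets of the 5 complexes (coloured), with the number tested in brackets. Dark grey marks all genes together and the genes of the other lists, without complex II assembly and the cell type markers. Complex III, with a median of 0.094, lies farthest to the right, and ATP synthase assembly, with 4 genes and a median of -0.074, farthest to the left.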

How the data were processed

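The authors deposited 1 MAS5 signal per probe set and array, an intensity on a linear scale; MAS5 is named per the submitters' processing notes, and its version and scaling target are not given in the sources used here. Arrays had been scaled alike (2% trimmed mean 150.0 to 150.1), which hides any change shared by most transcripts. Symbols came from the platform annotation, and all 95 member probe sets matched GRCr8. From these values, log2(signal + 16) was modelled in limma 3.58.1 under R 4.3.3 (lmFit, then eBayes with the prior variance following the intensity; 2-sided p, Benjamini-Hochberg over all tested probe sets), after leaving out 57 control probe sets and 12417 probe sets below the 40th percentile of the mean signal. The 16 added to each signal shrinks the fold changes of dim probe sets, which are therefore understated. With 3 arrays a strain, an exact permutation test has a smallest 2-sided p of 0.1 and was not used. The fit was tested on simulated data. The number of arrays limits the precision; pools are different rats, so the spread is biological and technical.

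Members named with values were the probe sets past the adjusted threshold, those with an unadjusted p under 0.05 or among the 3 smallest p of a complex, the core subunits, isoform families, genes with disagreeing probe sets, chromosome 9 genes and the 2 smallest p of each list. Members outside it that are named for having no overlap, an extreme value or a role were picked after their values were seen. The members and lists were chosen with earlier results of these data known. Same-numbered arrays of the strains did not deviate together (r = 0.037, 0.014 and 0.021), so the numbers were not taken as pairs.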

Additional observations from a re-analysis of the deposited data

How the results depend on the processing

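The alternatives were pseudocounts 1 and 64, no filter or a filter at the 60th percentile, quantile normalization, median centring, no intensity trend, robust eBayes, the replicate block and each array left out in turn; counting the probe sets with several symbols was added after seeing the data. No alternative passed a member at an adjusted p under 0.05; over all probe sets the count was 0, and 0 to 1 with an array left out (1 without congenic replicate 2). Of 701 values of 47 named member probe sets, 695 moved by less than 1 SD between replicates, 5 by more (all under quantile normalization), and 1 changed sign from a value over its SE. That was Cox5b, which ranged from -0.0075 to 0.12 with an array left out.

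The 7 members at an unadjusted p under 0.05 became 3 without a filter, 4 with quantile normalization, 1 without the intensity trend and 1 to 7 with an array left out. The 6 higher ones became 3, 2 and 0 under the same settings and 1 to 7 with an array left out. The cause was not tested. With the replicate block 5 members had an unadjusted p under 0.05, and 0 passed adjusted; not every array correlated best with its own number. The 11 members with no overlap became 8 with quantile normalization (9.3%, against 12.6% of all probe sets) and 13 with median centring (15.1%, against 12.5%). They were 13 to 24 with an array left out, where fewer arrays make separation easier (all probe sets 20.7% to 27.4%).

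With an array left out, the median of complex II ranged from -0.0057 to 0.072, of complex I assembly from -0.026 to 0.0202, of complex IV assembly from -0.025 to 0.049, of the citric acid cycle from -0.0104 to 0.0199, of the regulators from -0.028 to 0.00121 and of the transport list from 0.00116 to 0.039. That of complex III assembly ranged from 0.0013 to 0.074, of complex II assembly from 0.0036 to 0.065, of ATP synthase assembly from -0.1004 to -0.043, of the electron carriers from -0.046 to -0.018 and of the ribosomal proteins from -0.014 to 0.021. The medians of complexes I (0.0027 to 0.044), III (0.067 to 0.106), IV (0.031 to 0.071) and ATP synthase (0.000093 to 0.039) moved by less than 1 SD between arrays under every alternative run.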
